A study of Homo sapiens with 8 samples.

Results

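Cells of the human melanoma line A375-LM3 that had been recovered from tumors were compared with and without introduced JMJD3, on 2 arrays carrying JMJD3 RNA and 2 carrying vector RNA. All probes that named 1 gene and were above background on 2 or more of the 4 arrays were followed, which gave 15677 of the 30113 named probes, or 11731 genes. A375-LM3 is a derivative of the established melanoma line A375. The groups were JMJD3-expressing A375-LM3 cells isolated from primary tumors and then grown for 3 passages, and cells carrying vector with the same history. They were followed by JMJD3-expressing and vector cells that were only cultured, for 1 day. The medium held 10% serum in all 4 groups. All 4 groups share the A375-LM3 background and carry either the JMJD3 construct or vector. The labels do not give the host of the tumors, the promoter of the construct, the number of tumors or clones behind each RNA, or whether the numbered arrays came from separate tumors, so the spread behind each p-value is that between numbered arrays and may be technical.

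JMJD3, the product of KDM6B, removes methyl groups from lysine 27 of histone H3. That mark is placed by the Polycomb complex PRC2 and is associated with silent genes, so JMJD3 is known as an enzyme that can help to open Polycomb-silenced genes during development and inflammation. In melanoma the mark and its writers have been studied in relation to growth, invasion and the exchange of signals with surrounding tissue.

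KDM6B itself was read by 1 probe near background. Its intensity was 162 and 159.7 on the JMJD3 arrays and 148 and 141 on the vector arrays, in the order replicate 1, replicate 2, as in all pairs of values below. The JMJD3 arrays were the higher ones without overlap, but 1 of the 4 arrays was above the background level of 161.4, and the log2 difference of 0.47 ± 0.18 (SE) did not pass (limma with Benjamini-Hochberg adjustment and no filter on dim probes, adjusted p = 0.382). The labels do not say whether the construct contains the probed part, so this probe does not check them.

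The 4 arrays were similar in the number of probes detected and unequal in how close they lay. Between 14901 and 15025 of the 15677 probes were above background on each. Across genes, which are not independent replicates, the JMJD3 replicates correlated with r = 0.980 and the vector replicates with r = 0.981, while JMJD3 replicate 2 and vector replicate 1 correlated with r = 0.984. JMJD3 replicate 1 and vector replicate 2 were the pair least alike, at r = 0.959, and lay at opposite ends of the first principal component of these 4 arrays. For this reason the genes below are given with the array on which each call depends.

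With JMJD3, 102 genes changed in the tumor-dissociated cells, which is 0.822% of the 12415 genes tested over the whole series. Of these 46 were higher (0.371% of genes tested) and 56 lower (0.451%). A gene was called when its Benjamini-Hochberg adjusted p was under 0.05 in limma, fitted over all 8 arrays with 4 group means. All changes below are log2 differences of background-corrected intensity, JMJD3 minus vector. The median over the 11731 genes was -0.0019, 49.7% of them had a positive difference, and 1650 had an unadjusted limma p under 0.05. The shares of calls and of positive differences over all genes are the ones to set beside the counts of the gene lists below. All 102 had intensities that did not overlap between the groups, as did 38.6% of all genes tested. A difference above 1 on the log2 scale in either direction was reached by 306 genes, 194 of them higher and 112 lower, so most differences of that size did not pass.

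The spread between replicates was wider in these cells, with a residual SD of 0.291 for JMJD3 and 0.280 for vector, against 0.208 and 0.184 for the same groups in culture. A fit that gave each origin its own weight called 55 of the 102 (23 higher, 32 lower), and a fit of the 4 tumor-dissociated arrays alone called 15 (8 higher, 7 lower), or 0.121% of genes tested. With 2 arrays a group the smallest p of an exact permutation test is 0.333, and the p-values given rest on the spread that limma pools over genes. Without JMJD3 replicate 1 and replicate 2 in turn the count was 44 and 426, and without vector replicate 1 and replicate 2 it was 177 and 16. No called gene changed sign in any of these 4 fits. This was fixed in advance, as their intensities did not overlap between the groups, and it shows no stability. Calls that held in all 8 fits leaving out 1 array of the series were those of SLC14A1, FABP4, THBS1, OLFML2A, ACTBL2, PBX3, MFAP4, EDN3, CDH6, TSPAN8, LINC01139 and UTS2.

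**Figure D1:**
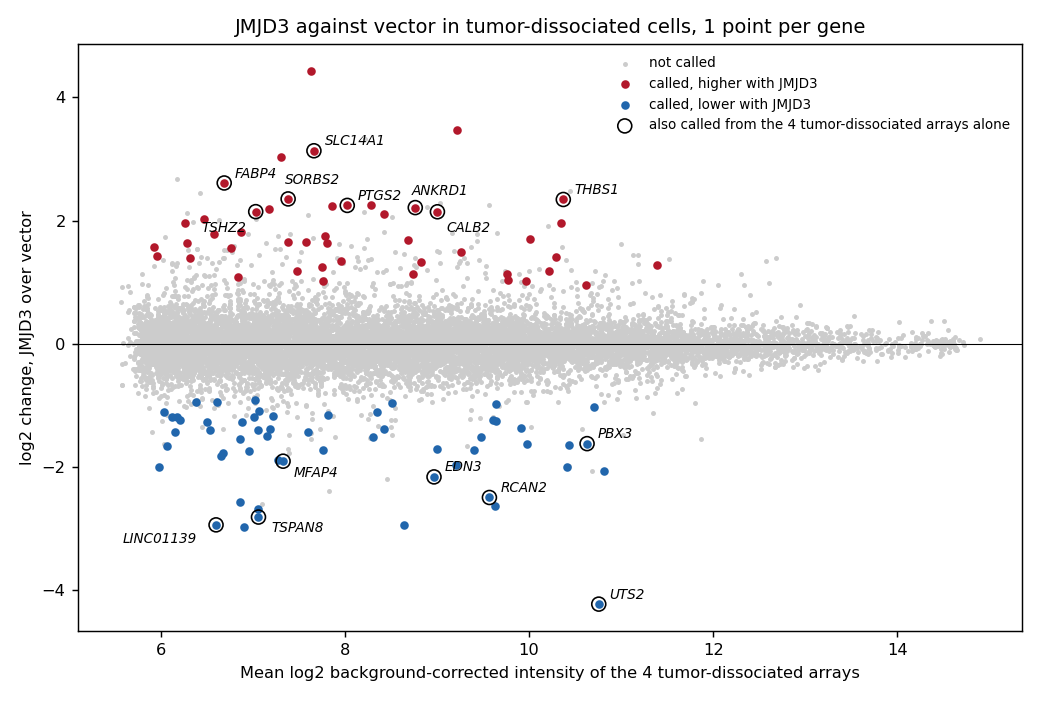
Log2 change with JMJD3 over vector (vertical axis) against the mean log2 background-corrected intensity of the 4 tumor-dissociated arrays (horizontal axis), with 1 point per gene. The 46 genes called higher are red, the 56 called lower are blue, and the 15 also called from the 4 tumor-dissociated arrays alone are ringed, with UTS2 at -4.22 lowest and DMBT1 at 4.43 highest.

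The secreted and cytoskeletal genes that the TEAD partner YAP is known to switch on contributed 4 rises. Of 25 measured members of a YAP and TEAD target list, THBS1, ANKRD1, TGFB2 and IGFBP3 rose and 0 fell, where 0.371% of all genes tested rose. The list's median was -0.03, against -0.0019 over all genes, and 13 members had a negative difference. To show the sequences upstream of the 4 that moved together, the 250 bases before each start are printed 5′ to 3′ on the gene's strand, from RefSeq on GRCh38.p14. Capitals mark CATTCC or its reverse complement GGAATG, the letters of the core motif bound by TEAD factors, searched on both strands. The ANKRD1 window (chr10:90921088-90921337, minus strand) held 2 matches, those of TGFB2 (chr1:218345086-218345335, plus strand) and THBS1 (chr15:39580829-39581078, plus strand) held 1 each, and that of IGFBP3 (chr7:45921273-45921522, minus strand) held 0.
ANKRD1: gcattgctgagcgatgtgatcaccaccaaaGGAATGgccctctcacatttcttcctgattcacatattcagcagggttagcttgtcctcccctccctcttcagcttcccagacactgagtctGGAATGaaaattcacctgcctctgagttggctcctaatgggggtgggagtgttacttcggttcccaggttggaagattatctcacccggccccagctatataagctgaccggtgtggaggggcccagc
TGFB2: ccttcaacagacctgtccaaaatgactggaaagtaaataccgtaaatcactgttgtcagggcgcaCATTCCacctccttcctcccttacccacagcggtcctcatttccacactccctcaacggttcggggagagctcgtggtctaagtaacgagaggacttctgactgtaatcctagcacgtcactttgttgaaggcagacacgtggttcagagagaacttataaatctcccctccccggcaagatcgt
THBS1: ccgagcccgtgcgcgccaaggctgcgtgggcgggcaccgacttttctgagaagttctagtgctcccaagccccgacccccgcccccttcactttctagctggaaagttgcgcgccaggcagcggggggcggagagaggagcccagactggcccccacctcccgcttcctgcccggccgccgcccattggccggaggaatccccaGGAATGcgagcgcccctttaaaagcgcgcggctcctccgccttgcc
IGFBP3: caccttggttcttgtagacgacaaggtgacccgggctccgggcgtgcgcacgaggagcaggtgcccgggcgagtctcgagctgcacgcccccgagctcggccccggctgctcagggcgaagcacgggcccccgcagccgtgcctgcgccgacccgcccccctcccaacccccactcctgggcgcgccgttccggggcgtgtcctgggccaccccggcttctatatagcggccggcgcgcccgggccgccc
The letters occur in 11.9% of the 27305 promoters of the same length in the table and in 9.4% of the 9467 followed genes that the table holds. A match describes these letters only and is neither a binding site nor a cause.

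THBS1, the matrix glycoprotein thrombospondin 1, had 3119 and 3055 on the JMJD3 arrays and 647 and 736 on the vector arrays. The replicates lay close together and far from the other group, and the change was 2.34 ± 0.16 (SE, 2 arrays a group, limma adjusted p = 0.000445). ANKRD1, a nuclear ankyrin-repeat protein of stretched and growing cells, had 1141 and 944 on the JMJD3 arrays and 269 and 347 on the vector arrays, a rise of 2.21 ± 0.33 (limma adjusted p = 0.0198). TGFB2, a ligand of the TGF-beta receptors, had 280.3 and 297 with JMJD3 against 165 and 166 with vector, so that its vector arrays stood just above background (1.56 ± 0.17, limma adjusted p = 0.0063). IGFBP3, a secreted carrier of insulin-like growth factors, had 1396 and 1665 on the JMJD3 arrays and 858 and 754 on the vector arrays, a rise of 1.02 ± 0.16 (limma adjusted p = 0.0279). The ANKRD1 call was lost without JMJD3 replicate 1 (2.06), vector replicate 1 (1.94) or vector replicate 2 (2.49), that of TGFB2 without vector replicate 2 (1.57), and that of IGFBP3 without JMJD3 replicate 1 (1.16), vector replicate 2 (0.91) or any 1 cultured array.

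The largest rises were in genes of unlike roles. DMBT1, a secreted scavenger receptor of epithelia, had 1980.2 and 556 on the JMJD3 arrays and 153 and 138 on the vector arrays. Neither vector array was above background, so JMJD3 cells were at least 15.6-fold higher (limma adjusted p = 0.00834). The bound was taken against the lowest background-corrected signal above background. DMBT1 was above background on JMJD3 arrays only and passed the filters through them, so its p is no independent support for the rise. LDB2, an adaptor of LIM-domain proteins, had 3592 and 1233 with JMJD3 against 312 and 255 with vector, with JMJD3 replicate 1 far above replicate 2 and both above the vector arrays (3.47 ± 0.55, limma adjusted p = 0.0246). SLC14A1, a urea transporter, had 782 and 633 on the JMJD3 arrays and 163 and 179 on the vector arrays, a rise of 3.13 ± 0.20 (limma adjusted p = 0.000371, and 0.0132 from the tumor-dissociated arrays alone). The DMBT1 bound was at least 7.69-fold without JMJD3 replicate 1 (3.41) and at least 31.8-fold without JMJD3 replicate 2 (5.46). Its call was lost without vector replicate 2 (4.18). LDB2 stood at 4.29 without JMJD3 replicate 2, and its call was lost without JMJD3 replicate 1 (2.66), vector replicate 1 (3.70) or vector replicate 2 (3.24).

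FABP4, a carrier of fatty acids that marks adipocytes, had 423 and 305 on the JMJD3 arrays, while the vector arrays at 139 and 149.6 were below background. JMJD3 cells were at least 4.32-fold higher (limma adjusted p = 0.00398). FABP4 too was above background on JMJD3 arrays only and passed the filters through them, so its p is no independent support. Of 7 measured adipocyte markers, FABP4 included, 4 and 4 were above background on the JMJD3 arrays and 3 and 1 on the vector arrays. Summed intensities were 2107 and 1926 on the JMJD3 arrays, 2199 and 1637 on the vector arrays and 1893 to 2463 on the cultured arrays. LEP had 837.6 and 698.4 with JMJD3 against 961.5 and 779.3 with vector. CIDEC had 198.5 and 197.3 with JMJD3 against 163.8 and 147.6 with vector. ADIPOQ, PLIN1 and CD36 were below background on all 4 tumor-dissociated arrays. The differences of the 4 followed markers had a median of 0.46, 3 of them were positive, and their part in the FABP4 result was not tested. SORBS2, an adaptor of actin and focal adhesions, had 492 and 467 with JMJD3 against 194 and 162 with vector, with no overlap and close replicates (2.35 ± 0.28, limma adjusted p = 0.00834). PTGS2, the inducible cyclooxygenase that starts prostaglandin synthesis, had 689 and 651 on the JMJD3 arrays and 249 and 199.9 on the vector arrays (2.25 ± 0.35, limma adjusted p = 0.0246). It was the 1 called gene among 22 NF-kB targets, of which 18 had a positive difference (median 0.30). The NF-kB median was 0.14 without both JMJD3 replicate 1 and vector replicate 2. The calls of SORBS2 (2.04) and PTGS2 (1.96) were lost without vector replicate 2, and that of PTGS2 also without JMJD3 replicate 1 (2.20).

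Both inhibitors of secreted proteases among the largest rises were low in vector cells. TFPI2, an inhibitor of plasmin and other serine proteases, had 759 and 488 on the JMJD3 arrays and 237 and 187 on the vector arrays (2.24 ± 0.29, limma adjusted p = 0.013). SERPINA1, alpha-1-antitrypsin, had 619.5 and 288 with JMJD3 against 172 and 168 with vector, with JMJD3 replicate 1 well above replicate 2 (2.20 ± 0.38, limma adjusted p = 0.038). It stood at 1.46 without JMJD3 replicate 1 and at 2.93 without replicate 2, and its call was lost without either vector array (2.23 without replicate 1, 2.16 without replicate 2) or without any 1 cultured array. The TFPI2 call was lost without vector replicate 2 (1.90).

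**Figure D2:**
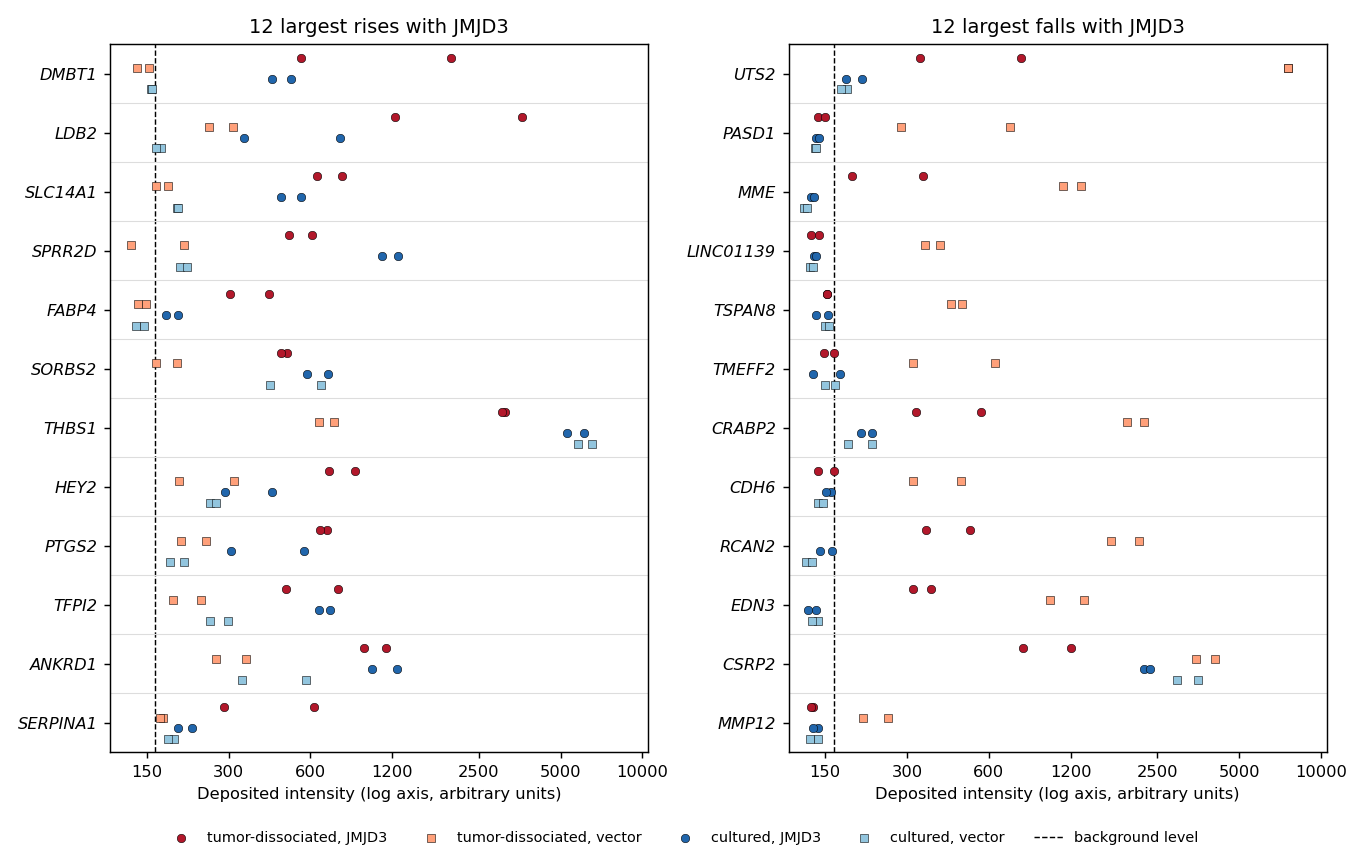
Deposited intensity (log axis, arbitrary units) on each of the 8 arrays for the 12 largest rises (left) and the 12 largest falls (right), with JMJD3 as circles and vector as squares and the background level as a dashed line. No gene overlaps between the groups of tumor-dissociated cells, and THBS1 in JMJD3 cells (3119 and 3055) lies nearer to the cultured arrays than in vector cells (647 and 736).

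Transcription regulators and a calcium buffer were also higher. HEY2, a repressor induced by Notch signalling, had 878 and 703 on the JMJD3 arrays and 315 and 198 on the vector arrays (2.26 ± 0.37, limma adjusted p = 0.029). It was the 1 called of 17 Notch pathway genes. Of these 14 had a positive difference, beside 49.7% of all followed genes, and the median was 0.30. TSHZ2, a zinc finger homeobox factor, had 345 and 413 with JMJD3 against 168 and 161 with vector, and 1 of its 2 vector arrays was above background (2.15 ± 0.30, limma adjusted p = 0.0162). CALB2, the calcium-binding protein calretinin, had 1026 and 1363 on the JMJD3 arrays and 316 and 382 on the vector arrays (2.14 ± 0.29, limma adjusted p = 0.015), while its other probe had a difference of -0.03. The calls of HEY2 (1.68), TSHZ2 (2.07) and CALB2 (2.34) were lost without vector replicate 2, and that of HEY2 also without JMJD3 replicate 1 (2.08) or either cultured vector array.

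Growth factors and their carriers were mostly higher where they were called. BMP2, a bone morphogenetic ligand, had 586 and 442 on the JMJD3 arrays and 258 and 195 on the vector arrays, a rise of 1.75 ± 0.27 (limma adjusted p = 0.0219). With TGFB2 it made up the 2 called of 31 BMP and TGF-beta genes, 23 of which had a positive difference (median 0.30). That median was 0.16 without JMJD3 replicate 1 and 0.09 without both JMJD3 replicate 1 and vector replicate 2. IGFBP7, a matrix-associated insulin-like growth factor carrier, had 3811 and 1888 on the JMJD3 arrays against 884 and 659 on the vector arrays (1.96 ± 0.31, limma adjusted p = 0.0246). IGFBP7 and IGFBP3 were the 2 called of 14 genes of that system. Of 23 secreted angiogenic and growth factors 3 rose, among them FGFBP1, a carrier of fibroblast growth factors (1.66), and NRG1, a ligand of ERBB receptors (1.82), besides THBS1. The platelet-derived growth factor PDGFD fell by 1.40, and this list's median was 0.05. The calls of BMP2 (1.38), IGFBP7 (1.72), NRG1 (2.04), FGFBP1 (1.74) and PDGFD (-1.02) were lost without vector replicate 2, those of BMP2 (1.49), IGFBP7 (1.44), NRG1 (1.46) and PDGFD (-1.17) without JMJD3 replicate 1, and that of NRG1 without vector replicate 1 (1.60). All of these except FGFBP1 and NRG1 were also lost without a cultured array.

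The epidermal differentiation complex is a gene cluster that encodes proteins of the cornified skin surface. Among 14 measured members 3 rose, where 0.371% of all genes tested did. Of the 14, 13 had a positive difference, beside 49.7% of all followed genes. The list's median was 0.40, and 0.125 without both JMJD3 replicate 1 and vector replicate 2. SPRR2D, a small proline-rich crosslinking protein, had 610.3 and 501 on the JMJD3 arrays and 206 and 132 on the vector arrays, the second of which was below background (3.03 ± 0.46, limma adjusted p = 0.0219). SPRR2F was at least 2.32-fold higher, and the calcium-binding alarmin S100A9 at least 2.57-fold, with neither vector array above background for either gene. Both genes were above background on JMJD3 arrays only and passed the filters through them, so their calls are no independent support. The SPRR2 genes are close copies of each other, and signal from one copy on the probe of another cannot be told apart here. The 9 measured keratinocyte markers summed to 6859 and 6148 on the JMJD3 arrays, 6138 and 5559 on the vector arrays and 5152 to 5675 on the cultured arrays. KRT5, KRT1, DSG3 and SFN were below background on all 4 tumor-dissociated arrays, and the part of these markers in the result was not tested. SPRR2D stood at 3.93 without vector replicate 1 and 2.12 without replicate 2, and lost its call without JMJD3 replicate 1 (2.85) or a cultured JMJD3 array. SPRR2F lost it without vector replicate 2, while the S100A9 call was kept in 1 of the 8 fits.

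An integrin subunit rose as well. ITGA2, the alpha subunit of a collagen receptor, had 908 and 741 on the JMJD3 arrays and 435 and 346 on the vector arrays, a rise of 1.33 ± 0.21 (limma adjusted p = 0.0268). With SORBS2 it was called among 35 integrin and focal adhesion genes. Of these 29 had a positive difference (median 0.32), beside 49.7% of all followed genes. The ITGA2 call was lost without JMJD3 replicate 1 (1.16), vector replicate 2 (1.11) or a cultured JMJD3 array. Further rises, in groups by size, were those of VAT1L (2.11), the cancer-testis antigen SPANXA1 (at least 3.02-fold, with near-identical copies on the array), the peptidylarginine deiminase PADI4 (at least 3.01-fold), the transcription factor RUNX3 (1.71), CD96 (1.69), RGS16 (1.66), OLFML2A (1.65) and ACTBL2 (at least 1.78-fold). Smaller ones were those of APOBEC3G (1.50), KLK6 (at least 1.72-fold), the crosslinking enzyme TGM2 (1.41), TMEM163 (1.40), PDLIM3 (1.35), TSC22D1 (1.28), TBX3 (1.24), RNF182 (1.19), the collagen prolyl hydroxylase P4HA2 (1.18), WDR72 (1.14), MAP3K1 (1.13), ZBTB38 (1.09), IGSF3 (1.04), the endotoxin receptor TLR4 (1.01) and CREB3L2 (0.95). SPANXA1, PADI4 and ACTBL2 were above background on JMJD3 arrays only and passed the filters through them, so their calls are no independent support. Other probes of TGM2 (-0.36) and TSC22D1 (-0.17) had the opposite sign. Among these genes OLFML2A and ACTBL2 kept their calls in all 8 fits, TLR4 in 0, and every other one lost its call at least without vector replicate 2.

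Of 8 measured vasoactive and neuropeptide genes 3 fell, where 0.451% of all genes tested fell. The fall of UTS2 was the deepest of all called genes. UTS2, the vasoconstrictor urotensin 2, had 336 and 788 on the JMJD3 arrays and 7594 and 7567 on the vector arrays, which were almost equal. It fell by 4.22 ± 0.40 (limma adjusted p = 0.00394), and the range over the JMJD3 replicates moved this to -3.45 without replicate 1 and -5.00 without replicate 2. EDN3, endothelin 3, whose receptor acts in melanocyte precursors, had 366 and 315 on the JMJD3 arrays and 1005 and 1340.4 on the vector arrays, and fell by 2.16 ± 0.22 (limma adjusted p = 0.00548). MME, the cell-surface peptidase neprilysin, had 189 and 344 with JMJD3 against 1125 and 1306 with vector, and fell by 2.94 ± 0.38 (limma adjusted p = 0.013). The other 5 genes of the list had positive differences, so that the median was 0.23. The median was -0.37 without JMJD3 replicate 1, and MME stood at -2.20 without JMJD3 replicate 1 and -3.69 without JMJD3 replicate 2 and lost its call without vector replicate 2 (-2.83).

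Of 20 cadherin genes 3 fell, and of 18 tetraspanins 1 fell, while 9 of the cadherins and 11 of the tetraspanins had a positive difference. Among all genes tested 0.451% fell, and among followed genes 49.7% had a positive difference. CDH6, a classical cadherin of kidney and neural crest, had 141 and 161 on the JMJD3 arrays, both below background, and 316 and 472 on the vector arrays, and was at least 4.77-fold lower (limma adjusted p = 0.0063). The protocadherins PCDH20 (at least 3.19-fold lower, limma adjusted p = 0.00852) and PCDH7 (which fell by 1.23 ± 0.17, limma adjusted p = 0.0155) were the other called members of 20 cadherin genes. PCDH7 had 640.3 and 582 on the JMJD3 arrays against 1266 and 1332 on the vector arrays. TSPAN8, a tetraspanin of epithelia and invasive tumors, had 153 and 153 on the JMJD3 arrays and 478 and 435 on the vector arrays, and was at least 5.99-fold lower (limma adjusted p = 0.000406). It was the 1 called of 18 tetraspanins, whose median was 0.17, while the cadherin median was -0.10. TSPAN8 and CDH6 were above background on the tumor-dissociated vector arrays only and passed the filters through them. The PCDH20 (-1.55) and PCDH7 (-1.19) calls were lost without vector replicate 2.

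Of 18 lipid-binding and retinoid genes 3 fell and 1, FABP4, rose. CRABP2, which delivers retinoic acid to its nuclear receptor, had 323 and 563 on the JMJD3 arrays and 1928 and 2225 on the vector arrays, and fell by 2.63 ± 0.33 (limma adjusted p = 0.0105). RDH10, which oxidises retinol toward retinoic acid, had 704 and 1113 with JMJD3 against 2401 and 2686 with vector (-1.64 ± 0.23, limma adjusted p = 0.0162). PLAAT4, known as a retinoid-inducible tumor suppressor, had 207 and 179.9 on the JMJD3 arrays and 362 and 317 on the vector arrays (-1.39 ± 0.20, limma adjusted p = 0.0177). In this list 9 members had a positive and 9 a negative difference, and the median was 0.05, and -0.36 without vector replicate 2. The calls of CRABP2 (-2.52), RDH10 (-1.56) and PLAAT4 (-1.52) were lost without vector replicate 2, and that of PLAAT4 also without vector replicate 1 (-1.25).

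Matrix genes moved in both directions. MFAP4, a microfibril-associated glycoprotein, had 180.3 and 191 on the JMJD3 arrays and 422 and 404 on the vector arrays, and fell by 1.90 ± 0.17 (limma adjusted p = 0.00285). EFEMP2, a fibulin needed for elastic fibres, fell by 0.98, and OLFML2A rose, which made 1 rise and 2 falls among 30 matrix glycoproteins (median 0.06). COL3A1, a fibrillar collagen, had 225 and 215 with JMJD3 against 364 and 491 with vector and fell by 1.44 ± 0.21 (limma adjusted p = 0.021), although 17 of 24 collagens had a positive difference and their median was 0.49. Of 17 collagen-modifying enzymes P4HA2 rose and the lysyl oxidase relative LOXL1 fell by 1.26. The macrophage elastase MMP12 was at least 2.13-fold lower and the aggrecanase ADAMTS5 at least 2.03-fold lower, each below background on both JMJD3 arrays. Both were above background on the tumor-dissociated vector arrays only and passed the filters through them, so their calls are no independent support. The collagen median was 0.17 without JMJD3 replicate 1, and without vector replicate 2 the calls of COL3A1 (-1.15), EFEMP2 (-0.87), LOXL1 (-1.06), MMP12 (-1.72) and ADAMTS5 (-1.15) were lost. Without JMJD3 replicate 1 the same calls except that of MMP12 were lost, without a cultured JMJD3 array those of COL3A1, EFEMP2 and ADAMTS5, and without a cultured vector array those of EFEMP2 and ADAMTS5.

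Fibroblast markers bear on the matrix genes and were measured beside them. Of 13 such markers between 9 and 10 were above background on each tumor-dissociated array and between 5 and 6 on each cultured array. Their summed intensity was 7949 and 6840 on the JMJD3 arrays, 5397 and 6753 on the vector arrays and 2368 to 2527 on the cultured arrays, while THY1, PDPN and DPT were below background on all 4 tumor-dissociated arrays. COL6A3 (3283.6 and 3616.6 on the JMJD3 arrays, 1965.1 and 2689 on the vector arrays) and PDGFRB (1999.7 and 792.3 on the JMJD3 arrays, 556.4 and 600.7 on the vector arrays) made up a large share of these sums. Of the 10 followed markers 6 were lower with JMJD3, with a median of -0.22, and 0.25 without JMJD3 replicate 2. The part of these sums in the results was not tested. In RNA from a cell population, fewer cells of a type and less RNA per cell cannot be told apart.

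Regulators of signalling and transcription were among the falls. LINC01139, a long noncoding RNA, had 142 and 133 on the JMJD3 arrays, below background, and 348 and 395 on the vector arrays. It was at least 4.55-fold lower (limma adjusted p = 0.000371). Only these vector arrays were above background and took it through the filters, so its p is no independent support for the fall. PBX3, a homeodomain partner of HOX proteins, had 984 and 1029.8 on the JMJD3 arrays and 2753 and 3011 on the vector arrays, and fell by 1.62 ± 0.15 (limma adjusted p = 0.00286). It was the 1 called of 28 genes in a list of HOX genes and their partners, whose median was -0.10. RCAN2, an inhibitor of calcineurin, had 352 and 513 with JMJD3 against 1696 and 2140.2 with vector (-2.49 ± 0.27, limma adjusted p = 0.0063), and VAV3, a guanine nucleotide exchange factor, had 355 and 422 with JMJD3 against 1064 and 995 with vector (-1.70 ± 0.20, limma adjusted p = 0.00834). Without vector replicate 2 the calls of RCAN2 (-2.32) and VAV3 (-1.76) were lost.

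The remaining large falls were in the cancer-testis antigen PASD1 (141 and 149 on the JMJD3 arrays, below background, 286 and 716 on the vector arrays, at least 5.69-fold lower), TMEFF2, a transmembrane protein with follistatin-like domains, and CSRP2. TMEFF2 had 149 and 162 on the JMJD3 arrays, 1 of them above background, and 317 and 632 on the vector arrays, and fell by 2.68 ± 0.43 (limma adjusted p = 0.0273). CSRP2, a LIM-domain protein of muscle and fibroblast cytoskeletons, had 803 and 1206 on the JMJD3 arrays and 3480.1 and 4088 on the vector arrays, and fell by 2.06 ± 0.23 (limma adjusted p = 0.0063). KRT8, an epithelial keratin, had 499 and 448 with JMJD3 against 1149.9 and 1537 with vector and fell by 1.73 ± 0.23 (limma adjusted p = 0.0155), the 1 called of 12 keratin and epithelial junction genes. TAGLN, an actin-binding protein of smooth muscle, fell by 1.15, the 1 called of 16 genes of epithelial-mesenchymal transition, 13 of which had a positive difference (median 0.32). PASD1 was above background on the tumor-dissociated vector arrays only and passed the filters through them, so its call is no independent support. The PASD1 bound was at least 10.4-fold without vector replicate 1 (-3.85) and at least 3.11-fold without vector replicate 2 (-2.11). TMEFF2 stood at -3.33 without vector replicate 1 and -2.03 without vector replicate 2. The calls of CSRP2, KRT8, TMEFF2 and TAGLN were lost without vector replicate 2, that of PASD1 without JMJD3 replicate 1 (-2.84), and those of TMEFF2 and TAGLN also without JMJD3 replicate 1 or either cultured vector array.

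Other larger falls were those of STMN3 (-1.99), RTN1 (-1.96), ODAD2 (-1.89), ZFHX4-AS1 (-1.82), CD248 (-1.73), CPED1 (-1.72), ANTXR2 (-1.63), SERPINI1 (-1.54), NFIA (-1.51), C19orf33 (-1.50), AGR2 (at least 1.98-fold lower) and LHX6 (-1.40). CPED1 had 212 and 233 on the JMJD3 arrays and 367 and 691 on the vector arrays, and stood at -2.30 without vector replicate 1 and -1.15 without replicate 2. Smaller falls were those of F2RL2 (-1.38), NEFL (-1.37), PRPH (-1.27), NFKBIZ (-1.25), ZNF121 (-1.18), SMC6 (-1.16), LY96 (-1.11), MAMSTR (-1.09), QPRT (-1.02), CEP135 (-0.96), ANKRD26 (-0.94), ZSCAN31 (-0.94) and MIR99AHG (-0.91). FGB, PTN, MAP3K19 and KCNH2 were below background on both JMJD3 arrays and at least 1.92-fold, 1.84-fold, 1.77-fold and 1.63-fold lower. AGR2, FGB, MAP3K19 and KCNH2 were above background on the tumor-dissociated vector arrays only. They passed the filters through those arrays, so their calls are no independent support. Every gene in this paragraph except FGB lost its call without vector replicate 2, and FGB lost it without either JMJD3 array or vector replicate 1. MIR99AHG and ANKRD26 were called in 0 of the 8 fits.

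Mitotic genes had mostly negative differences, and 1 of them passed. CENPE, the kinetochore motor, had 430.4 and 643 on the JMJD3 arrays and 1221 and 1390.4 on the vector arrays, and fell by 1.51 ± 0.23 (limma adjusted p = 0.0212), and its other probe had a difference of -1.72. Where 49.7% of all followed genes had a positive difference, 44 of 45 mitosis and kinetochore genes had a negative one, with a median of -0.33. That median was -0.09 without JMJD3 replicate 1 and -0.60 without JMJD3 replicate 2, and 0.04 without both JMJD3 replicate 1 and vector replicate 2, the arrays least alike. The CENPE call was lost without JMJD3 replicate 1 (-1.15), vector replicate 2 (-1.41) or a cultured JMJD3 array. Of 42 replication and S-phase genes 0 passed, with a median of -0.11 and POLE2 at -0.43 as the largest difference. The S-phase median was 0.11 without JMJD3 replicate 1 and 0.11 without both JMJD3 replicate 1 and vector replicate 2, and POLE2 stood at 0.0037 without JMJD3 replicate 1 and -0.85 without JMJD3 replicate 2.

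Lists with 0 called members covered a range of programmes. Interferon-stimulated genes had a median of -0.07 over 36 members, led by IFIT1 at -0.90. p53 targets and CDK inhibitors had a median of 0.09 over 24, led by the cell cycle inhibitor CDKN1A at 0.96 ± 0.21 (7362 and 4943 on the JMJD3 arrays, 3368 and 2958 on the vector arrays, limma adjusted p = 0.0836). ERK output genes had a median of 0.34 over 26, led by IER3 at 0.95, Wnt genes one of 0.28 over 23, led by LEF1 at 1.51, and class I antigen presentation genes one of 0.20 over 19, led by HLA-B at 1.27. LEF1 stood at 0.83 without vector replicate 2 and at 2.19, and was called, without vector replicate 1. HLA-B stood at 0.54 without vector replicate 2 and at 2.01, and was called, without vector replicate 1. The class I median was 0.10 without vector replicate 2 and -0.03 without both JMJD3 replicate 1 and vector replicate 2. CDKN1A stood at 0.66 without JMJD3 replicate 1 and at 1.25, and was called, without JMJD3 replicate 2. Unfolded protein response genes, led by ASNS at -0.73, and genes of cholesterol and fatty acid synthesis, led by FASN at 0.49, had medians of 0.01 and -0.05. The 35 Polycomb proteins and histone demethylases, the group to which JMJD3 belongs, had a median of 0.05, and PCGF3 at 0.56 was the largest. Of the genes of interest in this series, the chemokines CXCL8 and CCL2 and the secreted glycoprotein STC1 did not pass, with CXCL8 at 0.16 ± 0.21 (2786 and 4058 on the JMJD3 arrays, 2802 and 3260.4 on the vector arrays), STC1 at 1.58 ± 0.33 (3437 and 1629 with JMJD3 against 836 and 884 with vector) and CCL2 at 2.47 ± 0.56 (7369.9 and 1582 with JMJD3 against 668 and 717 with vector). CCL2 stood at 1.33 without JMJD3 replicate 1 and at 3.62 without JMJD3 replicate 2 and was called in both of these fits, and STC1 stood at 1.01 and was not called without JMJD3 replicate 1, and stood at 2.14 and was called without JMJD3 replicate 2.

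**Figure D3:**
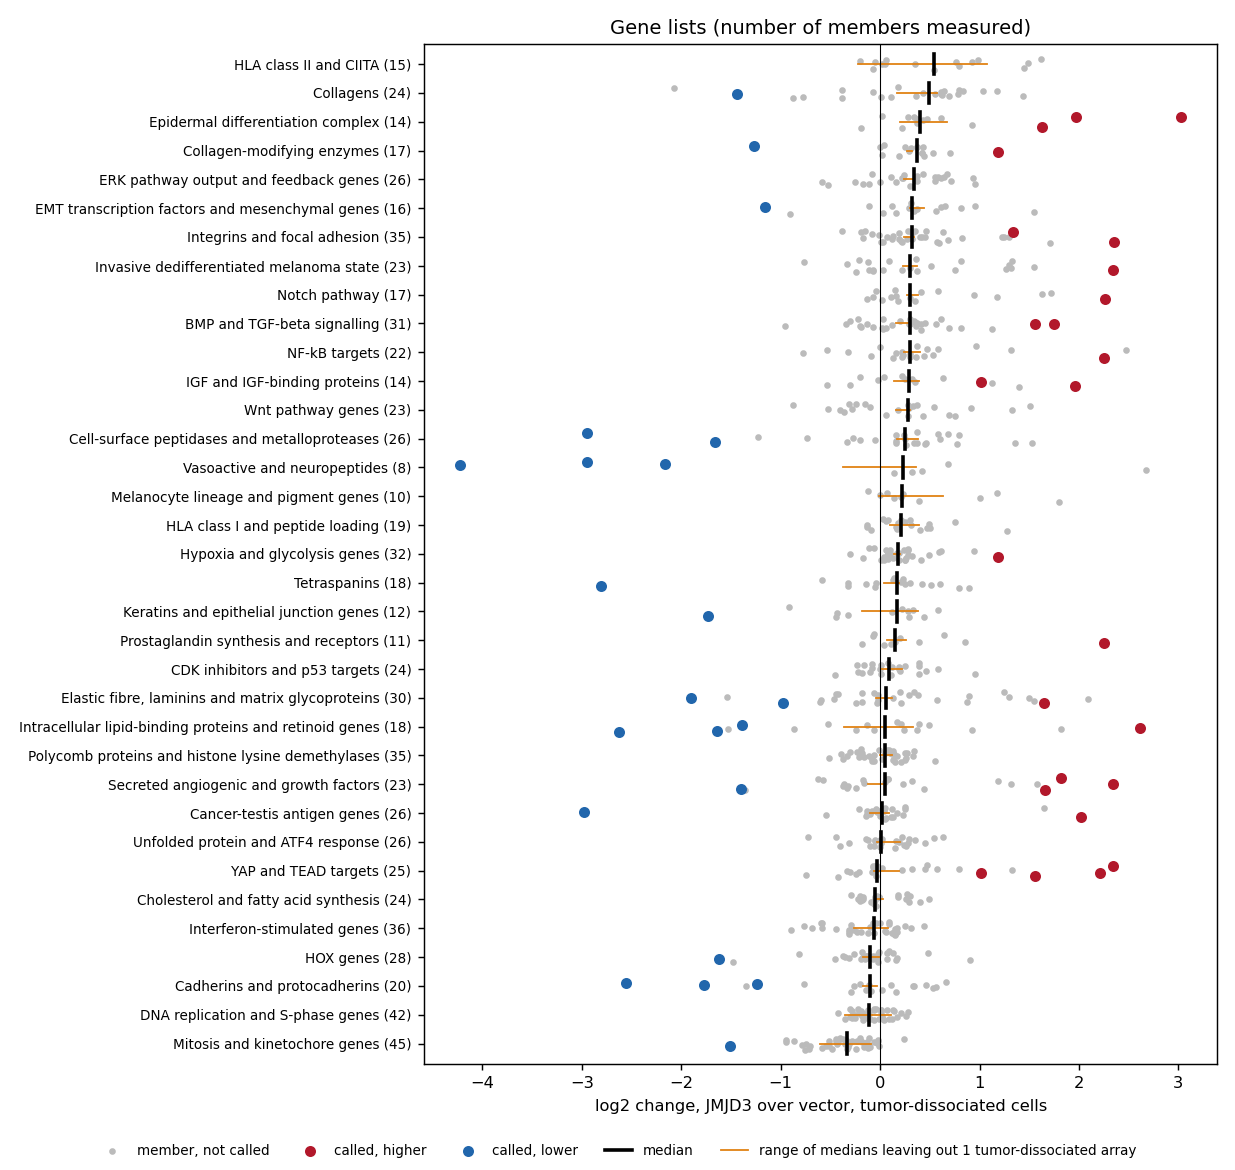
Log2 change with JMJD3 over vector in tumor-dissociated cells for every measured member of 35 gene lists, 1 list a line, with the number of members in brackets, called members in red and blue, the median as a black bar and its range over the 4 fits leaving out 1 tumor-dissociated array in orange. The class II HLA median of 0.54 ranged from -0.22 to 1.07 and the mitosis median of -0.33 from -0.60 to -0.09, and the YAP and TEAD list held 4 called rises with a median of -0.03.

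The class II antigen presentation genes and the melanocyte lineage genes differed mainly on 1 vector array. CD74, the invariant chain of class II molecules, had 3889.8 and 3501 on the JMJD3 arrays and 3644 and 490.2 on the vector arrays, so vector replicate 2 stood alone and the groups differed by 1.61 ± 0.76 (limma adjusted p = 0.406). The median of 15 class II genes was 0.54, with 0 called, and was -0.22 without vector replicate 2. SOX10, a master factor of the melanocyte lineage, had 1188 and 2184 on the JMJD3 arrays and 1559.8 and 230.5 on the vector arrays, again with vector replicate 2 alone at the low end (1.80 ± 0.88, limma adjusted p = 0.422). Over 11 measured melanoma cell markers, summed intensity was 7121 and 9149 on the JMJD3 arrays and 8032 and 4905 on the vector arrays, and MLANA, TYR and S100B were below background on all 4. The median of 10 melanocyte genes was 0.22 and -0.01 without vector replicate 2.

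Markers of leukocytes, endothelium and skeletal muscle were measured as well. Of 12 measured leukocyte markers between 3 and 6 were above background on each tumor-dissociated array and between 5 and 6 on each cultured array. The sums were 3923 and 3159 on the JMJD3 arrays, 3473 and 3110 on the vector arrays and 3364 to 3539 on the cultured arrays. CD68, at 1306.7 to 1688.1 on the tumor-dissociated arrays, made up a large share of them. PTPRC, CD3E, ITGAM, MS4A1, TYROBP and FCER1G were below background on all 4 tumor-dissociated arrays. CSF1R was at 558 on JMJD3 replicate 1 and at 157 to 183 on the other 3 tumor-dissociated arrays, and was chosen for mention after its values were seen. Of 11 endothelial markers 9 were below background on all 4 arrays, among them CDH5, KDR, TEK and VWF, and all 8 skeletal muscle markers were. Whether RNA of other cells took part in the differences was not tested.

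The called genes were also measured in cultured cells. There, 39 of the 46 rises also had a positive difference with JMJD3, or 84.8%, where 48.2% of all followed genes had one, and the median was 0.74. SPRR2D, SPRR2F, FGFBP1, SLC14A1 and VAT1L passed there too, with 0.0886% of genes called in culture. Of the 56 falls 19 had a negative difference in culture, 0 were called there and the median was 0.10. A total of 20 of the 56 falls and 0 of the 46 rises were below background on all 4 cultured arrays, as were 344 of the 11731 followed genes. Of genes above background on all 4 cultured arrays, 10 of 29 falls and 26 of 33 rises kept the sign, as did 5699 of 10361 followed genes, and the median difference in culture was 0.12 for these falls and 0.43 for these rises. The 2 comparisons share no array, but each p uses the spread pooled over all 8.

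Levels were also set against culture for the vector arrays. In 50 of the 56 falls both tumor-dissociated vector arrays were above all 4 cultured arrays, compared with 2354 of the 11731 followed genes, and in 27 the JMJD3 arrays were too. UTS2, for example, was at 179 and 204.5 in cultured JMJD3 cells and at 179.6 and 172.0 in cultured vector cells, far below its 7594 and 7567 in tumor-dissociated vector cells. Conversely, in 23 of the 46 rises both tumor-dissociated vector arrays were below all 4 cultured arrays, compared with 2456 of the followed genes. THBS1 had 5295 and 6113 in cultured JMJD3 cells and 5816 and 6506 in cultured vector cells, and its level in tumor-dissociated JMJD3 cells lay between these and the vector level. These counts use the arrays that defined the falls and rises and are given as a description.

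The test of the difference between origins called 13 genes, 0.105% of those tested, 11 of them among the 102. THBS1 differed by 2.46 ± 0.23 (limma adjusted p = 0.0118), and OLFML2A (1.87) and ZBTB38 (1.57) also had the more positive effect in tumor-dissociated cells. PBX3 (-1.78 ± 0.21, limma adjusted p = 0.0313), VAV3 (-2.28) and UTS2 (-4.49) had the more negative one. LINC01139, TSPAN8, RCAN2, MFAP4 and CDH6 were called in the same direction, but were below background on all 4 cultured arrays, so no size is given. A fall cannot be seen at background, so for them the test does not tell a lack of effect in culture from a lack of signal. UTS2 (172 to 204.5 in culture) and VAV3 (155.9 to 204.4) were near background there, which limits their sizes too. The other 2 genes, CXCL8 and SPP1, were not called in tumor-dissociated cells. For the other called genes a difference between origins was not shown. The count of 13 was 2 without vector replicate 2, 69 without JMJD3 replicate 2, 65 without vector replicate 1 and 0 to 3 without 1 cultured array.

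**Figure D4:**
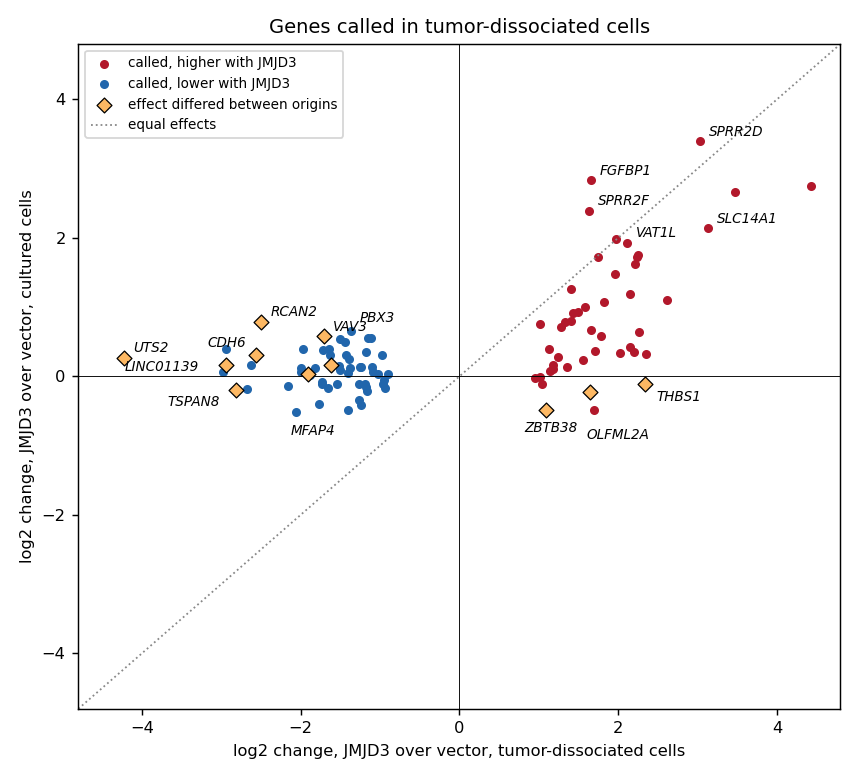
Log2 change with JMJD3 over vector in tumor-dissociated cells (horizontal axis) and in cultured cells (vertical axis) for the 102 genes called in tumor-dissociated cells. Of the 46 rises (red) 39 lie above 0 on the vertical axis, and the 56 falls (blue) gather near 0 with a median of 0.10. Diamonds mark the 11 called by the test of the difference between origins, some of them below background in culture.

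Some called genes lie beside each other in the genome. With followed genes put in RefSeq order, 7 pairs of called genes were within 3 places of each other. The members of 5 pairs moved the same way, namely SPRR2D with SPRR2F, SPRR2F with S100A9, FGFBP1 with LDB2, PDLIM3 with SORBS2, and MMP12 with PDGFD, while TMEM163 with MAP3K19 and CREB3L2 with PTN moved oppositely. No expected number was computed for such pairs. A second probe was available for 27 of the 102 genes, and of 34 such probes 31 had the same sign as the reported one. Some of these had small differences, namely those of P4HA2 (0.02 and 0.75), MIR99AHG (-0.06), RTN1 (-0.28 and -0.24), TBX3 (0.30), CPED1 (-0.45 and -0.79), FGB (-0.45) and TAGLN (-0.46). UTS2 had -0.78 on one further probe and -4.23 on the other.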

How the data were processed

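Total RNA was amplified, labelled with biotin and hybridised to Illumina HumanHT-12 V4 BeadChips, and GenomeStudio (framework 2011.1, Gene Expression module 1.9.0) was used, per the series' design text and the labels' protocols. The intensity values deposited by the authors cover 47323 probes and are linear. How they were normalized is not stated in the labels or the design text. Sorted, the columns differed by no more than 0.00575 in log2 units and the lowest value was 110.7, so the columns share 1 distribution and background had not been subtracted. The 16 columns of a table from before normalization match no label and were not used, so dim probes were filtered on intensity in place of the detection p-values that the design named.

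The background level, 161.4, is the one-sided 0.01 point of a distribution with its centre at the mode of all values (139.7) and an SD of 0.0892 on the log2 scale. Values were background-corrected with normexp (offset 16), put on the log2 scale and fitted in limma 3.58.1 (R 4.3.3; functions lmFit and eBayes) with 4 group means over 8 arrays, 4 residual and 5.11 prior degrees of freedom. Probes above background on at least 2 of the 8 arrays were tested, 1 per gene (that with the highest mean), which gave 12415 genes. The filter for following a gene used the tumor-dissociated arrays: of the named probes 1600 were above background on 1 of the 4, just outside it, and 975 on 2 of the 4, just inside. Adjusted p-values are Benjamini-Hochberg values over all genes tested. Where a group was below background on both arrays, the ratio is a bound, for which the dim group was set, array by array, at least at the lowest corrected value that counted as above background. The scripts were tested on simulated data. Array number limits the precision.

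Named were the 12 largest rises and falls among called genes, the genes called from the 4 tumor-dissociated arrays alone, every called member of 36 gene and 8 marker lists or, with none called, the largest difference, the other called genes in groups, and KDM6B, CXCL8, STC1 and CCL2. Genes and lists were chosen with earlier results of these data known, so a list's direction is no independent evidence. A single list is not reported here. The replicate numbers are not a pairing: the labels give no shared source, there are 2 numbers a group, and same-numbered deviations correlated with r from 0.046 to 0.371 over the pairs of groups (0.105 for the tumor-dissociated groups, 0.371 for the cultured ones). Promoters are RefSeq's, GRCh38.p14. Alternatives covered array weights by origin, the arrays fitted, background correction, the filter, every probe, the eBayes prior, a replicate block and leaving out arrays.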

Additional observations from a re-analysis of the deposited data

Results flagged for a closer look

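The test of the difference in JMJD3 effect between tumor-dissociated and cultured cells (limma, Benjamini-Hochberg over 12415 genes) called 13 genes. The adjusted p was 0.0118 for THBS1, 0.0388 for ZBTB38 and 0.0398 for OLFML2A, which had the more positive effect in tumor-dissociated cells. It was 0.0313 for PBX3, 0.0321 for VAV3 and 0.0323 for UTS2, which had the more negative one. For genes below background on all 4 cultured arrays it was 0.00833 for LINC01139, 0.0149 for TSPAN8, 0.0313 for RCAN2, 0.0321 for MFAP4 and 0.0398 for CDH6. In these a fall could not have been seen in culture, so a difference in effect is not shown. CXCL8 (adjusted p = 0.0321) had a difference of 0.16 in tumor-dissociated and 2.58 in cultured cells, and SPP1, which encodes osteopontin (adjusted p = 0.0361), one of -1.54 and 1.73. SPP1 had 1842 and 2848 on the tumor-dissociated JMJD3 arrays and 4721 and 8892 on the vector arrays.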

How the results depend on the processing

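The 102 calls in tumor-dissociated cells became 15 from the 4 tumor-dissociated arrays alone (2 residual degrees of freedom), 55 with array weights per origin, 65 without background correction and 25 without JMJD3 replicate 1 and vector replicate 2, of which 18 were among the 102. Leaving out 1 array gave 16 to 426 calls. With the replicate block the count was 168, and with the block on the 4 tumor-dissociated arrays 0, although 1490 genes then had an unadjusted limma p under 0.05. The replicate numbers are no stated pairing. An offset of 50, the other filters, every probe, and a trended robust prior gave 72 to 138. The 13 genes whose effect differed between origins became 35 with the replicate block, 22 with the trended robust prior and 0 to 69 leaving out 1 array, where fits with 0 calls had between 593 and 832 genes at an unadjusted limma p under 0.05. Weights, background correction, offset, filters and probes gave 10 to 17, and leaving out both arrays that stood apart gave 18. No gene called in tumor-dissociated cells changed sign in these settings. Their intensities did not overlap between the groups, so this outcome was built in and shows no stability. Some uncalled differences changed sign, such as that of CXCL8, at 0.16 and at -0.12 without JMJD3 replicate 2. No sign check was made for the difference between origins. List medians moved by more than the replicate spread in 8 to 15 of 43 lists when 1 tumor-dissociated array was left out. The smaller fits hold fewer arrays, and otherwise the cause was not tested. Signal near background limits the 20 genes whose ratio is a bound.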
